A study of Saccharomyces cerevisiae with 6 samples.

Results

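Ty elements are the retrotransposons of budding yeast, and their long terminal repeats (LTRs) often stay behind alone as solo LTRs. The nucleosome library held 544 fragments from these elements and LTRs, of 9277 in all that reached 10 reads in each of gel sections A and B. A fragment was a member when its midpoint lay in an annotated Ty element or LTR of the R64 genome, at least 30 kb from a chromosome end. Because Ty elements are repeated, the 544 fragments comprised only 113 distinct sequences, of 7407 over all fragments. The annotation held 50 elements and 288 LTR entries outside them, and 48 elements had at least 1 member.

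The samples compared came from 1 experiment. Topo-seq-A and Topo-seq-B were the minichromosome DNAs eluted from gel section A, with less negative linking numbers, and from section B, with more negative ones, and NucLib was the unselected library. All came from strain FY251, of mating type a with the alleles ura3-52, trp1-∆63, leu2-D1 and his3-∆200, whose pooled transformants each carried a YCp1.3 minichromosome with 1 nucleosomal fragment released by micrococcal nuclease, and none was treated. The ura3-52 allele is itself a Ty insertion that the reference genome lacks, so its site was not analysed here. Any of its fragments identical to a reference copy could not be told apart from that copy. Topo-seq was carried out once and each sample was sequenced in 2 runs, so the spread between runs is the error of sequencing and not of culture, transformation or gel. The lists summed to 3772256 reads for section A, 3345826 for section B and 2599858 for NucLib.

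A Ty element is copied through an RNA that its own reverse transcriptase turns into DNA. The TYA frame encodes the Gag-like coat protein of its virus-like particle, and the TYB frame encodes the protease, integrase and reverse transcriptase. The LTRs at both ends hold the promoter and the end of the transcript, and are named delta for Ty1 and Ty2, sigma for Ty3 and tau for Ty4. Ty1, Ty3 and Ty4 are known for inserting next to tRNA genes. Each fragment was measured in the minichromosome, away from its own site in the genome, and all exact copies of a sequence make the same insert.

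The readout is the DNA linking number difference (∆Lk) that the inserted nucleosome restrains. It was computed from the relative abundance of a fragment in the 2 sections, scaled by 0.85, corrected for fragment length and placed around 1 library mean, which the study's methods fix. The median over all 9277 fragments was −1.25. The length correction had a part from the data, the mean over fragments of the same length, and a fixed part of 0.007 per bp. Copies of a sequence entered this mean as separate fragments, so a sequence with many copies weighed on its own correction. At 134 bp, for example, 26 of the 147 fragments were copies of 1 Ty1 TYA sequence. The fixed part added 0.294 to the shortest of the 113 sequences (102 bp) and took 0.343 from the longest (193 bp), so the side of the library mean on which a short or long fragment fell also depends on it. Without the fixed part, 63 sequences instead of 61 were above the library mean. This is a net count, since sequences crossed the mean in both directions. A Ty1 LTR sequence from 219 to 330 went from −1.17 to −1.38, and a Ty2 TYA sequence from 562 to 754 went from −1.59 to −1.24. Intervals in brackets are exact 95% intervals of the read counts. They cover counting error only, since the counts are reads after PCR and not independent molecules.

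A few sequences carry the comparisons between near-identical copies. They are printed along the element, 5′ to 3′, from the R64 reference, and capitals mark the bases at which the members of a pair differ. By alignment to YGRWTy1-1, the Ty1 element with most members, the first pair falls in TYB at bases 2562 to 2711. The second falls at bases 4144 to 4293, also in TYB. At the base where the first pair differs, YGRWTy1-1 itself carries A.
Ty1 2562 C, chrV:446611-446760, minus strand, 15 genome copies: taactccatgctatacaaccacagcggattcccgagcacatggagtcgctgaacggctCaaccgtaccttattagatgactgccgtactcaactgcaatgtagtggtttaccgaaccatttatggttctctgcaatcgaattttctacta
Ty1 2562 G, chrII:262133-262282, plus strand, 3 genome copies: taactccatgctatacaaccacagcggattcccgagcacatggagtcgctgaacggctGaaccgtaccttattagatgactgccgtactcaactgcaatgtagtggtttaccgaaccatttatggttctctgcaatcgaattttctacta
Ty1 4144 TG, chrII:225176-225325, plus strand, 10 genome copies: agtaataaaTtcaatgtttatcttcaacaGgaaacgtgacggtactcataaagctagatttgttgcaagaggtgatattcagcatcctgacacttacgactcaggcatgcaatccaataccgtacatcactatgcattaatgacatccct
Ty1 4144 CA, chrIV:988354-988503, minus strand, 10 genome copies: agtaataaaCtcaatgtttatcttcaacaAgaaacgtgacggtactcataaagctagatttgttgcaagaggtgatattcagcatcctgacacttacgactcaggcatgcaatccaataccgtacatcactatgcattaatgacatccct

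The sequences at the ends of the ∆Lk range are shown next, because their values are described in detail. Capitals mark runs of 5 or more A or T, except in the Ty2 sequence at 562, where they mark the 102 bp that also occur alone as a member.
Ty2 562 to 754 (TYA), chrXV:709270-709462, minus strand: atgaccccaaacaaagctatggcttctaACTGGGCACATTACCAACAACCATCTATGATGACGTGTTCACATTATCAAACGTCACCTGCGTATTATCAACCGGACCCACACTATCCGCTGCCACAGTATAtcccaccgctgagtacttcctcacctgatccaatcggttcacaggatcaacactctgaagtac
Ty1 555 to 662 (TYA), chrI:165502-165609, minus strand: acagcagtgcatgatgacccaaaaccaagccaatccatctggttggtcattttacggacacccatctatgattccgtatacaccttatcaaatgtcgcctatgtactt
Ty1 515 to 620 (TYA), chrVII:536274-536379, plus strand: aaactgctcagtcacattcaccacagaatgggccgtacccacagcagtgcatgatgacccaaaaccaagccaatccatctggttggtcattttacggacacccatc
Ty2 3540 to 3682 (TYB), chrIII:88350-88492, plus strand: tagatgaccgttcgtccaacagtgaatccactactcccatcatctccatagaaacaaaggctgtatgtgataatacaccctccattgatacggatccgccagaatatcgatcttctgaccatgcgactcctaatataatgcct
Tau solo LTR, chrVII:204996-205129, plus strand: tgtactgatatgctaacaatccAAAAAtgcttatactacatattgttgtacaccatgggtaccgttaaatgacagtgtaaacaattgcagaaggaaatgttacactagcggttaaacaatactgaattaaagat
Ty4 3427 to 3579 (TYB), chrVIII:88964-89116, plus strand: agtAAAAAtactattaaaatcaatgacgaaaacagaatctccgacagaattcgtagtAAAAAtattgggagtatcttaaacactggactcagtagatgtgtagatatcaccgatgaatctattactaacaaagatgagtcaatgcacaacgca

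Ty1 gave most members. It held 428 fragments and 73 sequences, against 83 fragments and 25 sequences for Ty2, 10 and 9 for Ty3 and 23 and 10 for Ty4, with 4 sequences present in both Ty1 and Ty2. No fragment of Ty5 met the rule. By place, 31 sequences lay in TYA, 54 in TYB and 28 in LTRs, of which 14 occurred only in solo LTRs. Of these 14, 11 lay within 1000 bp of a tRNA gene. Sequences from all elements and solo LTRs of a family were aligned to 1 reference element, with only the first match kept. They need not occur in that element itself. So placed, they covered 71.2% of the Ty1 element YGRWTy1-1 and 33.4% of the Ty2 element YORCTy2-1. Coverage was 17.3% for the Ty4 element YJLWTy4-1 and 15.3% for the Ty3 element YGRWTy3-1.

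**Figure D1:**
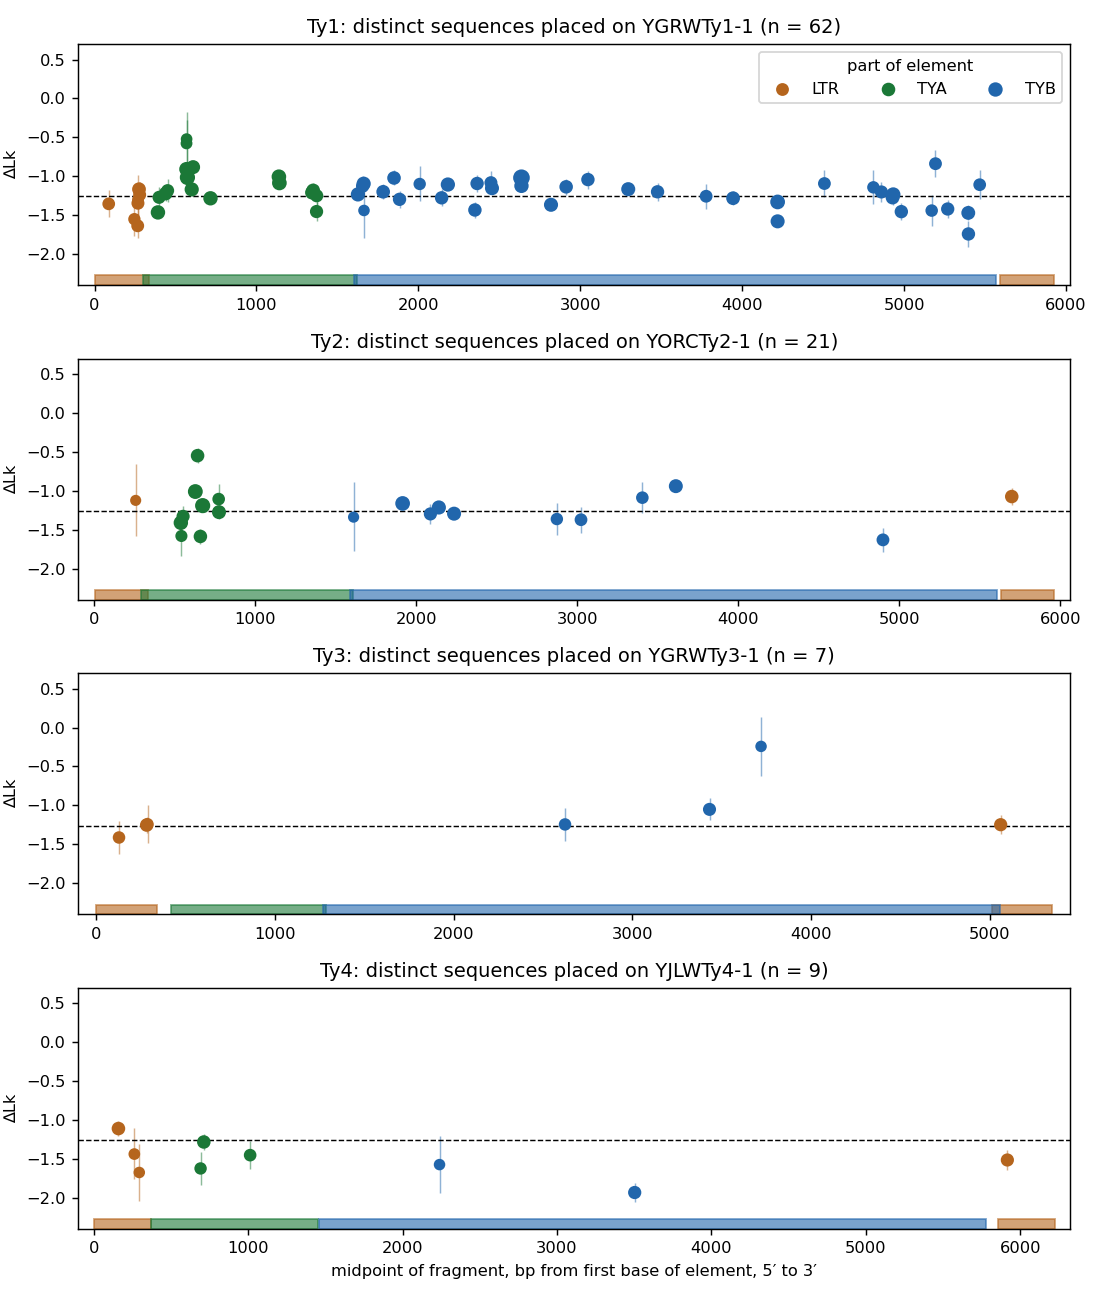
∆Lk (y axis) of the distinct sequences by the midpoint of the fragment along the reference element of each family (x axis, bp), with points sized by reads, bars for the 95% counting intervals, the strip below for the LTRs, TYA and TYB, and the dashed line at the library mean. Most Ty1 sequences sit close to the line, those in TYA between 500 and 700 bp sit above it, and 8 of the 10 Ty4 sequences, of which 9 are placed, are below it.

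Members took a larger share of the reads in section A than in section B. They held 1.97% and 1.95% of the reads in the 2 runs of section A, against 1.44% and 1.45% in section B, and 2.28% and 2.34% in NucLib. The runs of 1 sample were closer to each other than to those of any other sample. With 2 runs against 2, an exact permutation test cannot give a two-sided p below 0.333, so these shares were not tested. Ty elements and LTRs over 30 kb from the ends make up 2.94% of the nuclear genome.

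The larger share in section A rested on a single Ty1 sequence. The C variant at Ty1 2562, in the TYB frame, had 25898 and 21066 reads in section A, against 7448 and 9457 in section B, and 12484 and 26484 in NucLib, summed over its 15 copies. That was 56.3% of the reads of the 113 sequences in section A, 31.8% in section B and 57.2% in NucLib. Without it, the other 112 sequences took 0.965% of the reads in section A, 1.08% in section B, and 1.13% in the deeper run of NucLib, so that section A no longer held the larger share of the 2 sections.

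**Figure D2:**
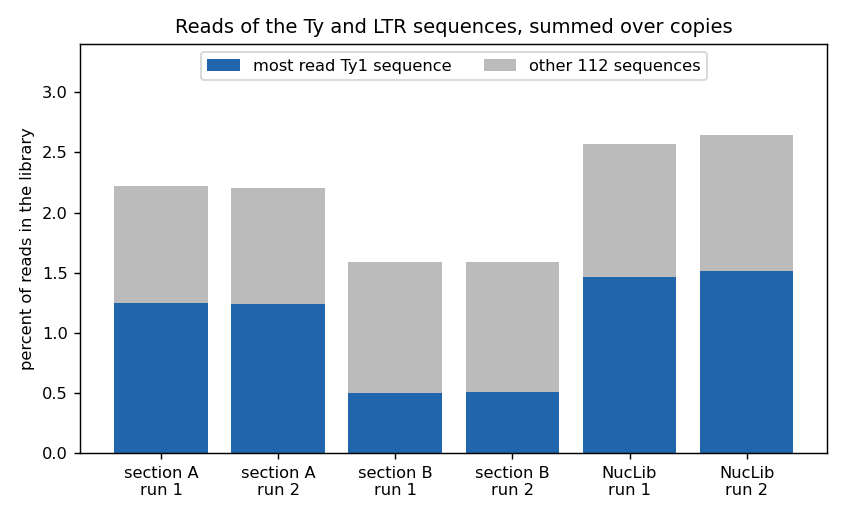
Percent of each library's reads (y axis) that came from the 113 Ty and LTR sequences, summed over all listed copies, in the 2 runs of section A, section B and NucLib (x axis), with the most read Ty1 sequence in blue and the other 112 in grey. The grey part is near 1% in each of the 6 libraries, while the blue part is 1.25% and 1.24% in section A, 0.503% and 0.507% in section B and 1.47% and 1.51% in NucLib.

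Reads of identical copies could not be told apart and were listed at several of them. The 14 copies of the C variant that lay in annotated elements had between 3050 and 3229 reads each in section A, 1021 to 1181 in section B and 2512 to 2663 in NucLib. Of its copies, 13 were members, 1 lay within 30 kb of a chromosome end and 1 lay outside any annotated element. Of the 544 members, 93.0% had more than 1 exact copy in the genome, with a median of 14 copies and a maximum of 32. The copies are therefore no replicates, and 75 further Ty and LTR sequences reached 10 reads in both sections only when their copies were summed.

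For 36 sequences with 5 or more member copies, the split of reads between sections A and B varied over the copies at or near counting noise, with a median chi-square per degree of freedom of 0.728 (range 0.139 to 1.68). This spread and the next cover member copies only, which by the rule had met the read minimum in each section. All genome copies were members for only 18 of the 36 sequences, so evenness over all copies was not tested. The Ty1 TYA sequence from 555 to 662, for example, had 28 genome copies, of which 14 were listed and 12 were members. Among member copies, the total of both sections was also spread evenly for 33 sequences, with values up to 1.82, but not for the other 3. These were a Ty1 TYB sequence from 5343 to 5449 (21.2, with 90 to 214 reads per copy), a Ty1 LTR sequence from 219 to 330 (15.6, 99 to 185 reads) and a TYB sequence of Ty1 and Ty2 from 4876 to 4989 (9.40, 59 to 140 reads). The SD of ∆Lk among the copies of 1 sequence had a median of 0.123 and lay between 0.0222 and 0.225. It was smallest for the C variant, which had most reads. The SD between these 36 sequences, from summed reads, was 0.203. Values per sequence below are from reads summed over every listed copy.

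**Figure D3:**
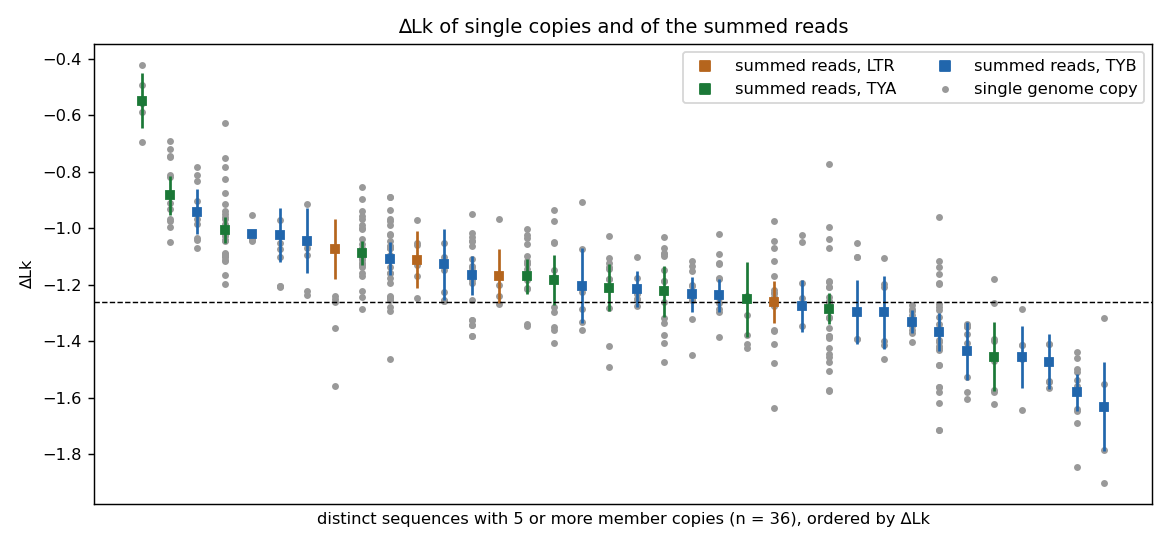
∆Lk (y axis) of the 36 sequences with 5 or more member copies, ordered by value along the x axis, with single genome copies in grey, the value from summed reads as a square coloured by part of the element, and 95% counting intervals as bars. The single copies of most sequences scatter around the summed value, and the copies of the most read Ty1 sequence lie between −1.04 and −0.95. In a Ty2 LTR sequence from 5623 to 5772, the 5 member copies of 17 listed lie below the summed value, between −1.56 and −1.24 against −1.07.

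In the comparison of section A with section B, edgeR's quasi-likelihood test with Benjamini-Hochberg adjustment over 9277 fragments called 87 members higher in section A, which is 16.0% of the 544, against 23.7% of all fragments. It called 87 members higher in section B, also 16.0%, against 20.7% of all fragments. When each distinct sequence was tested once over 8022 sequences, 43 of 113 were higher in section A (38.1%, against 24.1% of all sequences) and 25 were higher in section B (22.1%, against 22.8%). The median member had 32 reads in section A as a fragment, against 172 as a summed sequence, so the counts per sequence rest on more reads than those per fragment. The median over all fragments was 49 reads in section A, so the 38.1% and 24.1% were not compared at equal read numbers. With the 75 further sequences, a set added after the values were seen, 64 of 188 were higher in section A and 38 were higher in section B. DESeq2 called 919 of all fragments higher in section A, 24 of them members, and 1339 higher in section B, 60 of them members. With TMM scaling these were 1831 fragments with 64 members, and 2132 fragments with 97 members. The larger number of calls for section B in these settings was thus shared by members and all fragments. The p-values measure only the spread between sequencing runs.

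The median log2 ratio of section A over section B was 0.25 over the 544 members and 0.08 over all fragments, or 0.46 and 0.29 with totals that left out the most abundant fragment. With 50 reads required in each section the order turned, to 0.20 over members and 0.28 over all fragments. The calls of the 113 sequences followed length. Those of the other sequences were not counted by length, so the counts that follow are no comparison with them. Of the 26 sequences under 130 bp, 22 were higher in section B and 0 in section A, while of the 87 longer ones 43 were higher in section A and 3 were higher in section B. The 113 sequences were 102 to 193 bp long with a median of 148 bp, the same median as that of the 5144 other sequences outside the rDNA and over 30 kb from the ends. This log2 ratio had a median of −2.05 for the 16 Ty and LTR sequences under 120 bp, against −1.87 for the other sequences of that length. It was −0.68 against −0.44 from 120 to under 140 bp, 0.69 against 0.59 from 140 to under 150 bp, 0.43 against 0.39 from 150 to under 160 bp, and 0.14 against −0.11 at 160 bp or more. Ty and LTR sequences followed the order of the other sequences across length, and the differences were not tested.

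**Figure D4:**
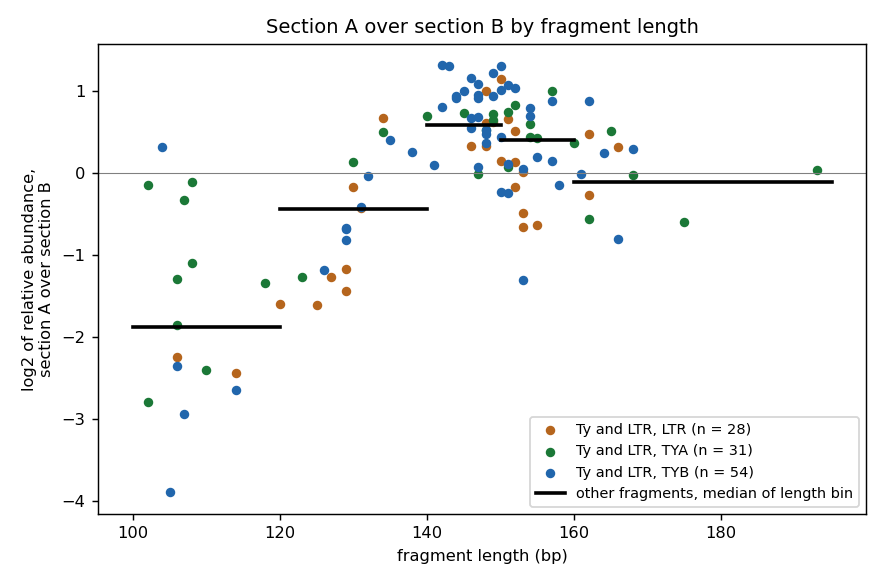
Log2 of the relative abundance in section A over that in section B (y axis) against fragment length in bp (x axis) for the 113 Ty and LTR sequences, coloured by part of the element, with the medians of the other fragments per length bin as black lines. Sequences under 120 bp lie mostly below 0 and those from 140 to under 150 bp mostly above it, along the lines of the other fragments.

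After correction for length, the 113 sequences had a median ∆Lk of −1.25, with an interquartile range of −1.37 to −1.11, and 61 of them were above the library mean. The median was −1.22 for 1300 rDNA sequences, −1.16 for 898 sequences within 30 kb of the ends and −1.28 for the 5144 others. Counted as 544 fragments, the members had a median of −1.21 and 59.4% were above the library mean, so counting each copy shifted the median by about as much as the sequences differed from the others. The 38 sequences with 1 genome copy had a median of −1.31, and the 75 with several copies one of −1.21. The interquartile range spanned 0.263 among the Ty and LTR sequences, against 0.344 among the others, few of which had several copies to sum. None of these differences was tested.

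Counting intervals lay wholly above the library mean for 32 sequences, wholly below it for 24 and across it for 57. The runs put 83 of 113 sequences on the same side of it, and the median absolute difference between runs was 0.0917. The largest difference between runs, 0.76, was that of a Ty4 TYB sequence at bases 2164 to 2314, which had 18 reads in section A, against 19 in section B.

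The internal frames and the LTRs overlapped widely. The median ∆Lk of the sequences was −1.21 in TYA, −1.21 in TYB and −1.32 in LTRs, where values ran from −1.70 to −0.95. Over fragments, internal members had a median of −1.19 and LTR members one at the library mean. In the test per sequence, 12 of 31 TYA sequences were higher in section A and 7 in section B, as were 26 and 10 of 54 TYB sequences and 5 and 8 of 28 LTR sequences. Over all sequences, 24.1% were higher in section A and 22.8% in section B. LTR sequences also had the lowest mean GC content, 34.3%, against 42.5% in TYA and 38.8% in TYB, and the highest mean TA step frequency, 11.7%, against 5.79% and 8.42%.

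**Figure D5:**
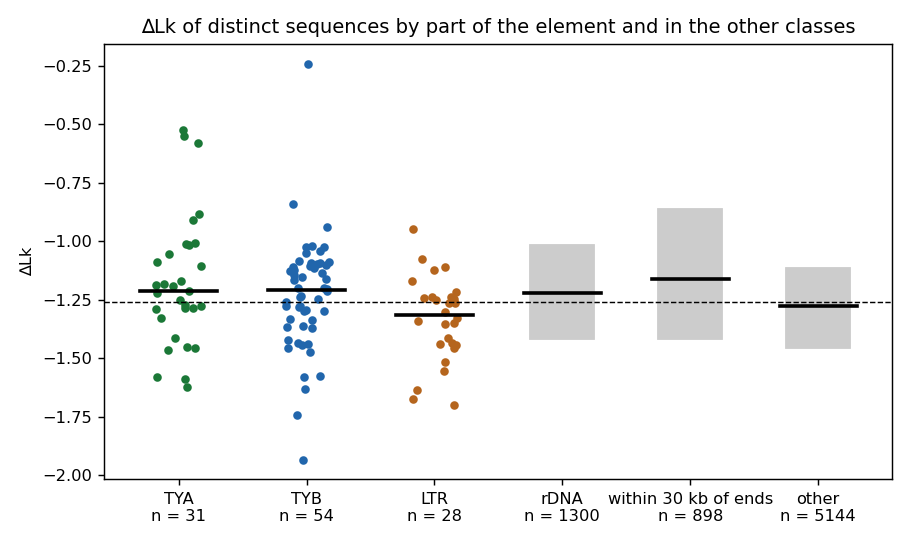
∆Lk (y axis) of the distinct sequences in TYA, TYB and LTRs (points, with the median as a black line) and, as grey boxes for the interquartile range with the median, of the rDNA, the sequences within 30 kb of the ends and all others. The points of the 3 parts overlap, and their medians, −1.21, −1.21 and −1.32, lie within the grey boxes.

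Among families, Ty4 had the most negative values. The median ∆Lk per sequence was −1.22 for Ty1, −1.25 for Ty3 and −1.48 for Ty4, and that of Ty2 lay at the library mean. Of the Ty4 sequences, 2 of 10 were above the library mean, both of them in tau LTRs. Ty4 sequences also had the lowest mean GC content of the families, 33.1%, against 38.9% in Ty1. The 3 sequences of Ty4 TYA and the 2 of Ty4 TYB were all below the library mean. The family difference was not tested.

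The least negative sequence with 100 or more reads in each section and both runs on 1 side was a 102-bp Ty2 TYA sequence at bases 590 to 691 with 6 exact copies. It had 115 and 130 reads in the 2 runs of section A, against 100 and 141 in section B, with 56 and 92 in NucLib. Its ∆Lk was −0.55 [−0.65, −0.45], with run values of −0.58 and −0.51. It was almost evenly divided between the sections, at a length at which most fragments were far richer in section B, and it was not called (edgeR adjusted p = 0.525).

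This 102-bp stretch was one of 4 Ty2 fragments that combine a pair of starts with a pair of ends. The fragment from 562 to 691 (130 bp) had a ∆Lk of −1.01 [−1.05, −0.97] from 1769 reads in section A, against 1429 in section B. That from 590 to 754 (165 bp, 3230 and 2015 reads) had −1.19 [−1.22, −1.16], and that from 562 to 754 (193 bp, 142 and 106 reads in the runs of section A, 103 and 111 in those of section B) had −1.59 [−1.69, −1.49]. The value became more negative with length across the 4, an order that was only partly kept without the fixed length term. Without it the values were −0.84 at 102 bp, −1.11 at 130 bp, −1.04 at 165 bp and −1.24 at 193 bp. The 130-bp and 165-bp fragments thus changed places, while the shortest stayed the least negative and the longest the most negative. Before the correction for length their log2 ratios lay close together, at −0.15 for the 102-bp fragment, 0.13 for 130 bp, 0.51 for 165 bp and 0.04 for 193 bp, so the shortest and the longest fragment, at opposite ends in ∆Lk, had nearly the same ratio. Only 3 fragments of all 9277 were 193 bp long, so its length correction rests on few values.

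Ty1 TYA had a similar cluster. All 6 sequences placed within bases 500 to 700 were above the library mean, between −1.17 and −0.52, and were 106 to 123 bp long. The fixed length term added 0.147 to 0.266 to each. Without it their values ran from −1.32 to −0.77 and 5 of the 6 were above the library mean, the exception being the 123-bp fragment from 539 to 661. The fragment from 555 to 662, in 28 genome copies, had 199 and 131 reads in section A, against 273 and 352 in section B, and a ∆Lk of −0.88 [−0.95, −0.81]. That from 515 to 620 had 315 and 244 reads against 538 and 672, and a ∆Lk of −0.91 [−0.96, −0.86]. Without the term the values were −1.14 and −1.18. Both were higher in section B by the count test (edgeR adjusted p = 2.09e-09 and 9.29e-14), yet less so than fragments of their length.

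Fragments that start at base 515 and end 1 or 2 bp further gave less negative point values from few reads. The 107-bp fragment, with 25 section A reads against 28 of section B, had a ∆Lk of −0.58 [−0.88, −0.27], and the 108-bp one had 22 and 21 reads and −0.52 [−0.86, −0.18]. The interval of the 106-bp fragment met both. The 118-bp fragment with the same start, with 1780 reads in section A, against 3989 in section B, had −1.02 [−1.04, −0.99], below the intervals of the shorter ones. Without the fixed length term, which differs with length, the 118-bp fragment was at −1.20 and the 106-bp one at −1.18, nearly the same. The 107-bp and 108-bp fragments were then at −0.84 and −0.77. In all, 31 of 99 sequences placed on an element shared an end base with another.

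The other least negative named members lay in TYB and in a tau LTR. The Ty2 sequence from 3540 to 3682, with 9 copies, had 341 and 305 reads in section A, against 84 and 148 in section B, a log2 ratio of 1.30 (edgeR adjusted p = 3.27e-10) and a ∆Lk of −0.94 [−1.02, −0.86]. The tau solo LTR on chromosome VII, a single copy 458 bp from a tRNA gene, had 256 and 214 reads against 122 and 141, and a ∆Lk of −0.95 [−1.03, −0.87] (edgeR adjusted p = 2.41e-05). Both were higher in section A in each run.

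The most negative named member was the Ty4 TYB sequence from 3427 to 3579, with 2 exact copies. It had 55 and 46 reads in section A, against 88 and 133 in section B, and 41 and 107 in NucLib. Its ∆Lk was −1.93 [−2.06, −1.81], with run values of −1.89 and −1.96, and it was higher in section B (log2 ratio −1.30, edgeR adjusted p = 1.21e-06), whereas most fragments from 150 to under 160 bp were richer in section A. The sequence holds 2 runs of 5 A. Without the fixed length term it was −1.87. Next came the Ty2 fragment from 562 to 754, whose whole departure from the library mean lay in that term (−1.24 without it), and the CA variant at Ty1 4144 (−1.54 without it), followed by a Ty4 LTR sequence from 5836 to 5997, at −1.52 [−1.64, −1.39] from 145 and 155 reads, and a 102-bp Ty1 TYA sequence from 341 to 442, at −1.47 [−1.53, −1.40] from 240 reads in section A, against 1472 in section B. Without the term the Ty4 LTR sequence was at −1.39 and the Ty1 TYA sequence at −1.76.

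Of the 113 sequences, a 104-bp Ty3 TYB fragment from 3669 to 3772 had the least negative value, −0.24, but its interval ran from −0.62 to 0.14. It rested on 13 and 8 reads in section A, against 10 and 5 in section B. It had too few reads to count among the least negative named members, which needed 100 in each section, and was singled out after its value was seen.

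The 2 variants at Ty1 2562 differ by 1 base, C59G counted from 1 at the first base of the C variant. The G variant had 591 and 501 reads in section A, against 208 and 273 in section B, and 291 and 648 in NucLib. Its ∆Lk was −1.12 [−1.18, −1.07], against −1.02 [−1.03, −1.01] for the C variant, and the order was the same in both runs (−1.13 against −1.03, and −1.12 against −1.02). Both were higher in section A, with log2 ratios of 1.01 and 1.30 (edgeR adjusted p = 1.92e-11 and 1.26e-29). In terms of reads, the G variant amounted to 2.33% of the C variant in section A, 2.85% in section B and 2.41% in NucLib. A further fragment of the group, from 2562 to 2707 and otherwise identical to the C variant, had −1.02 [−1.12, −0.93].

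Another 14 Ty1 elements carry C59A at the same place, 2 of them with 1 further difference. Their copies summed to 46 reads in section A, 0 listed reads in section B and 52 in NucLib, none with more than 10 reads in a sample. Lists of section B held no count below 2. The aligner's tolerance of mismatches is not given in the sources used here, so whether reads of 1 variant were assigned to copies of another was not tested, for the G variant either.

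The TG and CA variants at Ty1 4144 differ by 2 bases, T10C and G30A counted from the first base of the TG variant, and each has 10 exact copies. The CA variant had 274 and 226 reads in section A, against 211 and 311 in section B, and 206 and 466 in NucLib. The TG variant had 923 and 735 reads in section A, against 515 and 568 in section B, and 471 and 1065 in NucLib. Their ∆Lk was −1.58 [−1.65, −1.51] and −1.33 [−1.37, −1.29], with run values of −1.55 and −1.61 for CA and −1.37 and −1.30 for TG. Intervals did not overlap, and the CA variant was the more negative in each run. Being of 1 length, the pair has the same length correction. The reads of CA were 30.2% of those of TG in section A, 48.2% in section B and 43.8% in NucLib. TG was higher in section A (edgeR adjusted p = 5.19e-06) and CA was not called (adjusted p = 0.0702).

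In all, 8 groups of sequences had both ends within 5 bp of each other on an element, with 18 sequences. The highest and the lowest member had intervals without overlap in 3 of the 8. Besides the pairs above, these held a Ty1 TYB pair that ends at base 5449, where the fragment from 5345 (105 bp) had a ∆Lk of −1.74 [−1.91, −1.58] and that from 5343 (107 bp) one of −1.47 [−1.57, −1.38]. These had 27 and 98 reads in section A, against 356 and 665 in section B. In the other 5 groups the intervals met.

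The most read sequences of the other families were also named. The Ty2 sequence with most NucLib reads was the 165-bp fragment described above. That of internal Ty3 was a single-copy TYB sequence from 3359 to 3505, with 103 and 79 reads in section A, against 37 and 39 in section B, and a ∆Lk of −1.05 [−1.19, −0.91]. That of internal Ty4 lay in TYA from 639 to 786, with 289 and 179 reads and a ∆Lk of −1.28 [−1.38, −1.18]. The Ty4 interval held the library mean, and the Ty3 interval lay wholly above it.

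For the LTRs, the most read delta sequence had 17 copies in elements and solo LTRs, 544 reads in section A, against 315 in section B, and a ∆Lk at the library mean, with an interval of −1.34 to −1.19. The most read sigma sequence was a solo LTR on chromosome IV, 162 bp from a tRNA gene, with 162 and 143 reads and −1.46 [−1.58, −1.33]. The most read tau sequence, with 6 copies, had 350 and 156 reads and −1.11 [−1.21, −1.01]. The sigma sequence was therefore more negative than the other 2, by intervals that did not overlap that of tau and met that of delta.

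YGRWTy1-1 on chromosome VII carried the most members of any element, 22, just above the 21 of the next element. Its fragments had 1443 section A reads, 1924 in section B and 1048 in NucLib, and their ∆Lk ran from −1.65 to −0.33 with a median of −1.15. Each of them had 3 to 29 exact copies, so no read can be placed in this element alone.

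Across the 113 sequences, ∆Lk was less negative with higher GC content (Pearson's r = 0.40, Spearman's rho = 0.39) and more negative with a higher frequency of TA steps (r = −0.32, rho = −0.31). It was also more negative with length (r = −0.43, rho = −0.41), a relation that was 0.10 and 0.06 without the fixed length term, while those to GC were then 0.47 and 0.48. These correlations run across sequences of 1 library that overlap and share ends, and are given as a description. Among the 65 sequences of 140 to 160 bp they were 0.43 and 0.42 for GC, −0.33 and −0.30 for TA, and −0.42 and −0.43 for length (−0.28 and −0.29 without the fixed term). The Ty and LTR sequences as a whole had a mean GC content of 38.7%, against 43.0% in the other sequences, 48.9% in the rDNA and 50.8% within 30 kb of the ends. They also had fewer runs of 5 or more A or T per sequence, 0.327, against 0.597 in the other sequences. The rDNA, with 0.211, and the sequences within 30 kb of the ends, with 0.251, had fewer still.

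Near the read minimum, 45 members had exactly 10 reads in their poorer section, with a median log2 ratio of 0.31, and 45 Ty and LTR fragments with 9 reads lay outside, with a median of 0.12. Near the distance limit, the member closest to a chromosome end was a copy of the 102-bp Ty2 sequence on chromosome II, 30283 bp from it, with a ∆Lk of −0.42. The nearest Ty fragment outside the limit lay in YHRCTy1-1, 18789 bp from the end of chromosome VIII, with a ∆Lk of −1.64 from 10 and 12 reads.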

How the data were processed

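Per the labels and the study's methods, reads were trimmed with Cutadapt and aligned to R64 with Bowtie 1.1.2 by the authors, whose processing notes also name SAMtools, Picard and BWA. The deposited values were raw read counts per fragment and run without normalization, in lists that all end at the same number of fragments, so the scarcest are not analysed here. Settings for mismatches and repeated sites are not given in the sources used here. Members and lists were chosen with earlier results of these data known. Relative abundance was the count over the list total. For ∆Lk, the Z-score of the share A/(A+B) was scaled by 0.85, the mean over fragments of equal length was subtracted, 0.007 was taken off per bp beyond a reference length, and −1.26 was added, after the study's methods. Sequences, copies and coordinates came from the RefSeq copy of R64. Places in elements came from alignment to 1 reference element per family with edlib 1.3.9.post1, a choice made after the annotation was seen. Counts were tested with edgeR 4.0.16 (glmQLFit and glmQLFTest, list totals as library sizes, 6 libraries, adjusted p under 0.05), with DESeq2 1.42.0 as an alternative, in R 4.3.3 and Python 3.11.15, and both steps were tested on simulated data.

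Named sequences were the 5 least and 5 most negative that had 100 or more reads per section and runs on the same side of −1.26, the most read in NucLib of each class, the ends of the 3 largest same-position groups, the element with most members, and those nearest the limits. Depth per run was 1698433 to 2073823 reads in section A, 1480629 to 1865197 in section B and 851697 to 1748161 in NucLib.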

Additional observations from a re-analysis of the deposited data

How the results depend on the processing

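Of the medians, shares and counts above, 44 values under the alternatives stayed within the spread between runs (counts within 1.5 times) and 46 moved. The order of calls among members differed between settings. More were higher in section A for each sequence once, and more in section B with TMM scaling, with DESeq2 and with no read minimum. Everything tested in these settings showed the same orders. The calls were 1936 and 1826 for each sequence once, and 1831 and 2132 with TMM scaling. They were 919 and 1339 with DESeq2, and 2298 and 3687 with no read minimum. The median log2 ratio of section A over section B, 0.25, was 0.21 to 0.23 in single runs, 0.21 and 0.20 with 20 and 50 reads, 0.46 with totals without the most abundant fragment, and 0.29 with only fragments of the study's list. The median over all fragments, 0.08, was 0.19, 0.28, 0.29 and 0.17 under these, so with 50 reads members lay below all fragments. The median ∆Lk, −1.21, was −1.205 to −1.202 in single runs, −1.199 and −1.249 with 20 and 50 reads, −1.236 with each sequence once and length means refitted, −1.204 with whole fragments inside elements, −1.212 without a distance limit, −1.221 in the study's list, −1.168 without the length mean, −1.221 without the 0.007 per bp and −1.19 with length means of single-copy fragments. The LTR median, −1.263, was −1.308 to −1.271 in single runs, −1.309 with each sequence once, −1.296 in the study's list and −1.316 without the 0.007 per bp. It crossed to the other side of the library mean with whole fragments inside (−1.254), single-copy length means (−1.257) and no length mean (−1.24). The internal median, −1.192, was −1.227 with 50 reads, −1.204 with each sequence once, −1.205 in the study's list, −1.164 without the length mean, −1.205 without the 0.007 per bp and −1.17 with single-copy length means.

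The share of reads was 1.829%, 1.57%, 2.21%, 1.929% and 2.052% in section A with 20 reads, 50 reads, each sequence once, whole fragments inside and no distance limit. It was 1.299%, 1.023%, 1.59%, 1.407% and 1.487% in section B, and 2.158%, 1.864%, 2.619% and 2.427% in NucLib, where whole fragments inside gave no such move. Section A kept the higher share of the sections throughout, since the most read Ty1 sequence stayed in each. The 87 members higher in section A became 24 with DESeq2, 43 with each sequence once and 56 to 89 when 1 library was left out (56 without Topo-seq-A replicate 1), where the lone run is assumed to vary like the others. The 87 of 544 higher in section B (16.0%) became 133 of 1579 with no read minimum (8.42%), against 3687 of all 32491 fragments. With each sequence once they became 25 of 113 (22.1%), against 1826 of all 8022 sequences. The split of calls was 64 to 97 with TMM scaling and 24 to 60 with DESeq2, against 87 to 87. Over all fragments these splits were 1831 to 2132, 919 to 1339 and 2202 to 1916. Run numbers did not pair the samples (run differences correlated at 0.0599 to 0.0803 between samples), and a block for the run number gave 97 and 92. The cause of these moves was not tested.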
